A study of Mus musculus with 8 samples.

Results

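The interferon response and the presentation of antigen on MHC class I were followed through 39 mouse genes, 30 of the interferon pathway and 9 of antigen presentation. They were chosen by name from the genes on the array: receptor chains, transcription factors, RNA sensors and antiviral effectors for the first set, and class I chains, peptide transport and loading proteins and immunoproteasome subunits for the second. Together they had 50 probes, and the array carried 34741 named genes or transcripts in all. The study measured RNA of the cortex of newborn male C57BL/6NCr mice at postnatal day 1.5 on Agilent one-colour 8x60K arrays, 1 array per pup. In the ischemia group (4 pups) the mother, anesthetised at E16.5, had had the uterine arteries closed by clips for 14 min, a model of interrupted blood supply to the fetal brain. The control group (4 pups) had the same strain, sex, tissue and age. The labels do not state whether control mothers were anesthetised or operated on, nor which pups were littermates, so p-values measure only the spread between the sampled pups.

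Type I interferons bind a cell surface receptor whose signal assembles a complex that holds Stat2 and Irf9, and this complex switches on interferon-stimulated genes through a short promoter element, the interferon-stimulated response element. The products block viral entry, replication and release, sense foreign RNA, and raise the machinery that cuts proteins, pumps the peptides into the endoplasmic reticulum and loads them on MHC class I. In brain tissue microglia and endothelial cells are among the carriers of such genes, and a low tonic level of the response is present without infection.

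The promoters below show the element in members whose results are described later. They are the 170 bases upstream of the start site in the RefSeq table of GRCm38.p6, written 5′ to 3′ on the strand of the gene, and capitals mark each match to the letters GAAANNGAAA on either strand. Isg15 lies at chr4:156200819-156200988 (minus strand) with 3 overlapping matches, Gbp3 at chr3:142559874-142560043 (plus strand) with 2 overlapping matches, and Bst2 at chr8:71537473-71537642 (minus strand) with 2. Ifit3 lies at chr19:34583359-34583528 (plus strand) with 2 matches and B2m at chr2:122147517-122147686 (plus strand) with 1. Ifitm1, at chr7:140967906-140968075 (plus strand), is shown for contrast, with 0 matches in these bases.
Isg15: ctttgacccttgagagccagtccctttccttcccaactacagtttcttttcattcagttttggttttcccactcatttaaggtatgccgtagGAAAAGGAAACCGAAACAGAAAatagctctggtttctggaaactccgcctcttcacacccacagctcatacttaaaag
Gbp3: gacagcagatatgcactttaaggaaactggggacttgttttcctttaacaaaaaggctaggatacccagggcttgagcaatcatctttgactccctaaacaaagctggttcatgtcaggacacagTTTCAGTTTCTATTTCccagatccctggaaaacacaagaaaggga
Bst2: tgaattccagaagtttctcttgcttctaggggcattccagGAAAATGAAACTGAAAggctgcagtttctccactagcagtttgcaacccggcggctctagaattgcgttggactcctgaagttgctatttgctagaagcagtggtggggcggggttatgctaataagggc
Ifit3: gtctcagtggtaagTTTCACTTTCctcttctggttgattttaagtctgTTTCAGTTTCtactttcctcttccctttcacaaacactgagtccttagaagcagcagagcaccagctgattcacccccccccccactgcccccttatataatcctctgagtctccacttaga
B2m: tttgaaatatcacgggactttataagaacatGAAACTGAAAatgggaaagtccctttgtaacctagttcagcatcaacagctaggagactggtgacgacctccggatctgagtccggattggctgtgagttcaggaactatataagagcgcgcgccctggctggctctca
Ifitm1: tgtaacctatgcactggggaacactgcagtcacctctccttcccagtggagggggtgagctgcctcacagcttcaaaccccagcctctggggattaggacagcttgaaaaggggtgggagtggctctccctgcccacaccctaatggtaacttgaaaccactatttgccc

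Levels are given as log2 of the processed signal minus log2 of the same array's 75th percentile, so that 0 is the 75th percentile, and differences are ischemia minus control on that scale. The array percentile lay between 305.6 and 393.3 signal units, and 47.6% to 51.7% of spots per array were well above background. Markers of cortical neurons were well above background on 8 of 8 arrays for 14 of 14 genes, among them Dcx, Tubb3 and Gad1, as a check of the labelled tissue. All 8 arrays lay on 1 slide, with the ischemia arrays in one row and the control arrays in the other, so row and group cannot be told apart. In bulk tissue, fewer cells of a type and less RNA per cell cannot be told apart either.

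Part of the interferon program was near or below the detection limit of the array in both groups. A gene was tested when 4 or more of the 8 arrays read a probe as well above background. This was the case for 28 of the 39 members, 20 of 30 interferon and 8 of 9 antigen presentation members. Of all 34741 named genes or transcripts 19751 were tested, a lower share than in either set of members. A group of 6 members was not well above background on any array. It held Ifit1, which binds viral RNA, and its family member Ifit3, the dynamin-like GTPase Mx1 and the RNA sensor Dhx58. The others were the transcription factor Irf7, which amplifies interferon production, and Tap1, a chain of the peptide transporter. Another 5 passed on too few arrays: Usp18, the protease that removes Isg15 from its targets, and Gbp2 on 0 ischemia and 2 control arrays each, Mx2 and the ADP-ribosyltransferase Parp14 on 0 ischemia arrays and 1 control array each, and Rsad2 on 1 ischemia array and 0 control arrays. No fold is given for these 11 members. Neither group was well above background for the first 6, and the brighter group's mean did not exceed the other group's detection floor for the last 5. Signals not well above background are listed here only to show where they lie. Ifit3 had -5.55, -6.03, -6.15 and -6.07 on ischemia arrays 1 to 4, against -4.64, -3.95, -6.05 and -5.63 on control arrays 1 to 4. Irf7 had -5.77, -5.13, -6.07 and -6.21 on the ischemia arrays, against -5.93, -4.54, -5.95 and -6.26 on the control arrays. The 10 spots of the Tap1 probe averaged -5.38, -5.86, -5.94 and -5.97 on the ischemia arrays, against -5.56, -5.56, -5.84 and -5.55 on the control arrays. The lowest signal that any probe well above background had lay between -4.02 and -3.68 on these arrays, and the values of all 3 genes were below the floor of their own array on all 8.

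No member passed the test between the groups. With limma and Benjamini-Hochberg adjustment over all 19751 genes at a threshold of 0.05, 0 of the 28 tested members were called, where 0.00506% of all genes were (1 gene, lower in ischemia). At an unadjusted p under 0.05, 1 member was lower in ischemia, the GTPase Gbp3, where 7.65% of all genes were, and 1 was higher, the membrane protein Ifitm1, where 3.25% of all genes were. The same 2 members were the only ones of the 28 whose groups did not overlap: Gbp3 with all 4 ischemia arrays below all 4 control arrays, as for 4.28% of all genes, and Ifitm1 with all 4 above, as for 2.27%. The difference was below 0 for 15 of the 20 tested interferon members and for 6 of the 8 tested antigen presentation members, against 57% of all genes. Without ischemia array 3 the counts were 11 of 20 and 3 of 8, against 58.2% of all genes, without control array 2 they were 12 of 20 and 4 of 8, and without control array 1 they were 14 of 20 and 3 of 8. The median difference was -0.07 for the interferon members, -0.04 for the antigen presentation members and -0.02 for all genes. The differences ran from -0.64 to 0.45 in the interferon set and from -0.33 to 0.11 in the antigen presentation set.

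**Figure D1:**
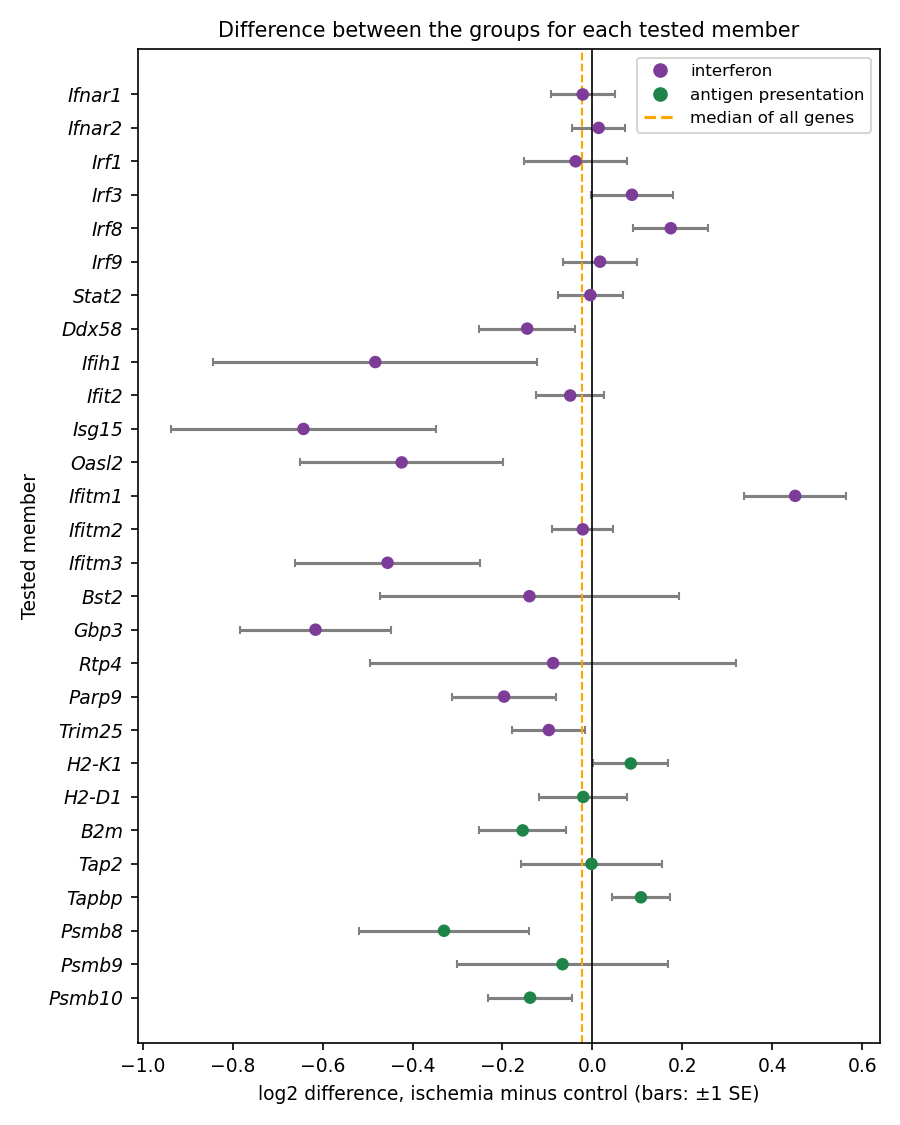
Difference between the groups for each of the 28 tested members, in log2 units, ischemia minus control (points), with bars of 1 standard error of the limma fit and the median of all genes as a dashed line. Isg15 and Gbp3 stand farthest to the left at -0.64 and -0.62, Ifitm1 farthest to the right at 0.45, and the receptor chains and class I chains lie near 0.

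The receptor and its transcription factors were well above background on all 8 arrays, apart from Irf7, and differed little. Ifnar1, the chain of the interferon receptor that binds the kinase Tyk2, had 2.50, 2.61, 2.77 and 2.64 on the ischemia arrays and 2.72, 2.60, 2.60 and 2.69 on the control arrays. Ifnar2, the chain with the higher affinity for interferon, had 1.26, 1.27, 1.20 and 1.27 on the ischemia arrays and 1.18, 1.35, 1.23 and 1.19 on the control arrays. The groups overlapped for both chains. Their differences were -0.02 (SE 0.07, limma adjusted p = 0.944) and 0.01 (SE 0.06, limma adjusted p = 0.958), and the 2 other probes of Ifnar1 gave -0.04 and -0.01.

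Of the 5 tested transcription factors 3 were higher and 2 lower in ischemia, with a median difference of 0.02. Irf3, which RNA and DNA sensors activate to start interferon transcription, had 2.84, 2.60, 2.57 and 2.58 on the ischemia arrays and 2.54, 2.66, 2.38 and 2.65 on the control arrays. Ischemia array 1 was the highest of the 8, and the other 3 ischemia arrays lay within the control range (difference 0.09, SE 0.09, limma adjusted p = 0.783). Stat2, the transactivating subunit of the interferon-induced complex, had 0.92, 0.89, 0.90 and 0.99 on the ischemia arrays and 1.00, 0.87, 0.78 and 1.05 on the control arrays. Its DNA-binding partner Irf9 had 0.32, 0.51, 0.42 and 0.44 on the ischemia arrays and 0.36, 0.61, 0.33 and 0.33 on the control arrays. The ranges of the groups overlapped for Stat2 and for Irf9, with differences of -0.00 (SE 0.07) and 0.02 (SE 0.08). The largest difference among the factors was that of Irf8, a factor of microglia and other myeloid cells, at 0.17 (SE 0.08, limma adjusted p = 0.498). Irf1, an activator of MHC class I genes, differed by -0.04 (SE 0.11).

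The RNA sensors were the next step, and both that were tested were lower in ischemia without passing. Ifih1 (MDA5), a sensor of long double-stranded RNA, had -3.21, -4.27, -3.95 and -2.99 on the ischemia arrays and -2.98, -2.35, -3.66 and -3.50 on the control arrays. It was well above background on 2 ischemia and 3 control arrays, and the groups overlapped widely (difference -0.48, SE 0.36, limma adjusted p = 0.681). The difference was -0.22 without control array 2 and -0.26 without ischemia array 2. Ddx58 (RIG-I), the sensor of RNA with a triphosphate end, differed by -0.15 (SE 0.11), and by -0.084 without control array 2 or without ischemia array 3.

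The antiviral effectors held the largest differences of the whole set. Of 11 tested, 10 were lower in ischemia and 1 higher, where 57% of all genes were below 0, with a median difference of -0.14. Of the 10, Bst2, Rtp4 and Ifitm2 did not stay below 0 when 1 array was left out, reaching 0.13, 0.10 and 0.02. Isg15, a ubiquitin-like protein that is attached to other proteins, is measured by a probe at chr4:155573649-155573708 in mm9. Its level was -0.94, -1.39, -1.62 and -1.38 on the ischemia arrays and -0.91, 0.24, -1.01 and -1.07 on the control arrays. Control array 2 stood 1.24 above the mean of the other 3 control arrays, and ischemia array 1 lay within the control range. The groups averaged -1.33 ± 0.29 and -0.69 ± 0.62 (SD, n = 4 each), a difference of -0.64 (SE 0.29, limma adjusted p = 0.476). Without control array 2 the difference was -0.33. A second Isg15 probe was well above background on 0 ischemia arrays and 1 control array, so no difference is given for it.

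Gbp3, an interferon-inducible guanylate-binding protein that acts on intracellular pathogens, was the only member with all ischemia arrays below all control arrays. Its probe at chr3:142236032-142236091 in mm9 had -3.01, -2.60, -2.80 and -2.71 on the ischemia arrays and -2.22, -1.69, -2.50 and -2.25 on the control arrays. The gap between the highest ischemia and the lowest control array was narrow, and control array 2 was again the highest. The means were -2.78 ± 0.17 in ischemia and -2.16 ± 0.34 in controls (SD, n = 4 each), a difference of -0.62 (SE 0.17, limma adjusted p = 0.294). Leaving out 1 array at a time gave -0.73 to -0.46.

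The 3 tested Ifitm genes, whose products sit in membranes and hinder the entry of enveloped viruses, lie in a cluster on chromosome 7 and had differences of both signs. Ifitm3 had -1.12, -1.31, -1.93 and -1.001 on the ischemia arrays and -0.92, -0.55, -1.07 and -0.998 on the control arrays, each value the mean of 10 spots. Ischemia array 3 was the lowest and control array 2 the highest (difference -0.46, SE 0.21, limma adjusted p = 0.474). The difference was -0.26 without ischemia array 3. Ifitm2 differed by -0.02 (SE 0.07), with levels between 1.75 and 1.99 on the ischemia arrays and between 1.87 and 1.94 on the control arrays.

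Ifitm1 ran the other way. Its probe at chr7:148155659-148155718 in mm9 had -0.93, -0.93, -1.17 and -1.05 on the ischemia arrays and -1.67, -1.48, -1.55 and -1.17 on the control arrays. All ischemia arrays were above all control arrays, with ischemia array 3 only just above control array 4. The means were -1.02 ± 0.12 in ischemia and -1.47 ± 0.21 in controls (SD, n = 4 each), a difference of 0.45 (SE 0.11, limma adjusted p = 0.258). A second Ifitm1 probe had -1.14, -1.22, -1.09 and -1.01 on the ischemia arrays and -1.60, -1.44, -1.31 and -1.26 on the control arrays, again without overlap, and a difference of 0.29. The 2 probes share a run of 54 bases, so they are not independent. Their last 30 bases, with the bases that differ in capitals, are given here because the repeat of the result rests on them.
Ifitm1 first probe: ctcaataaagtgcacgtgctgtgaCTTTCT
Ifitm1 second probe: actcaataaagtgcacgtgctgtgaAAAAA

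Bst2 and Rtp4 were, with Ifih1 and Isg15, the 4 tested members with the largest range within a group. Bst2 (tetherin), which holds budding virus at the cell surface, had -0.96, -1.01, -1.80 and -0.14 on the ischemia arrays and -0.82, -0.32, -1.19 and -1.01 on the control arrays. The ischemia group held both the highest and the lowest array of the 8 (difference -0.14, SE 0.33, limma adjusted p = 0.919), and the difference was 0.13 without ischemia array 3, 0.031 without control array 2 and -0.42 without ischemia array 4. Rtp4, an interferon-induced chaperone of membrane receptors, had -1.73, -0.04, -1.65 and -1.66 on the ischemia arrays and -1.29, -0.62, -1.78 and -1.04 on the control arrays. Ischemia array 2 was the highest of the 8 for Rtp4, and without it the difference of -0.09 became -0.50. Leaving out other single arrays gave Rtp4 differences up to 0.10. Oasl2, a relative of the oligoadenylate synthetases that sense double-stranded RNA, had -3.19, -2.68, -3.25 and -2.75 on the ischemia arrays and -3.03, -2.01, -2.69 and -2.45 on the control arrays. Control array 2 was highest here too, and the groups overlapped (difference -0.42, SE 0.23, limma adjusted p = 0.544). Without that array the difference was -0.24. The other 3 tested effectors differed by -0.20 (Parp9, which works with an E3 ligase at damaged DNA and in antiviral signalling), -0.10 (Trim25, the ubiquitin ligase that acts on RIG-I) and -0.05 (Ifit2, an RNA-binding protein). The Trim25 probe used ends in a run of 31 bases of alternating T and G, and whether its signal is specific was not tested. The second Trim25 probe differed by -0.07.

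**Figure D2:**
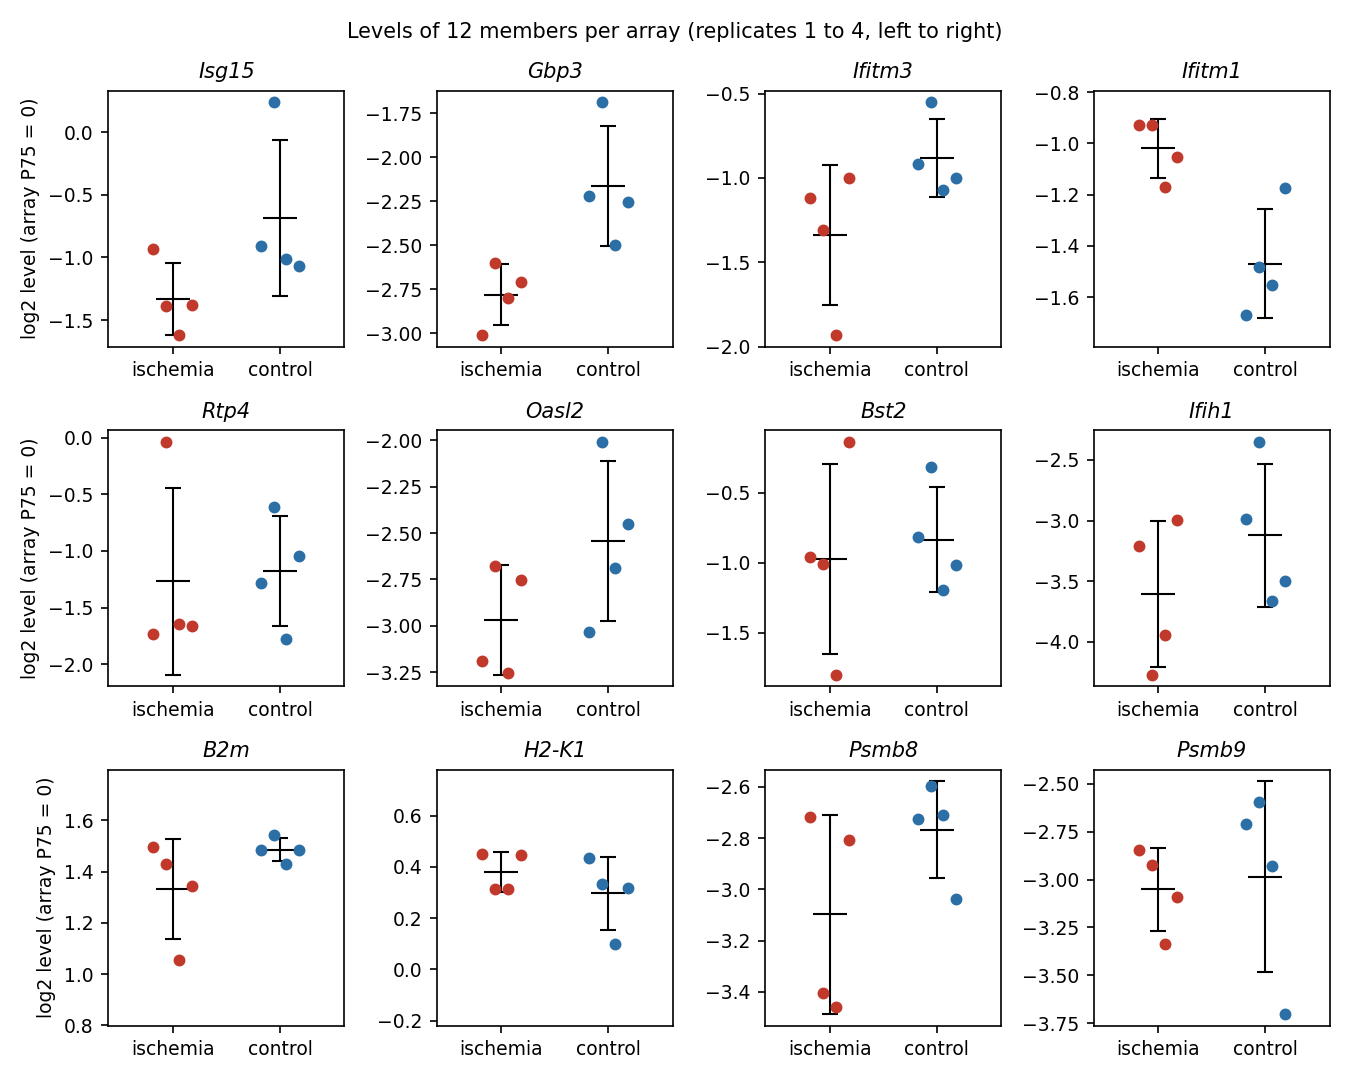
Level of 12 members on each array, as log2 signal with the array's 75th percentile at 0, ischemia (red, left) and control (blue, right), with the mean and SD as black lines and a scale of its own in each panel. Control array 2 (second blue point) is the highest control in the panels of Isg15, Gbp3, Ifitm3 and Oasl2, and the groups are apart only for Gbp3 and Ifitm1.

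The class I chains were well above background on all 8 arrays, with small differences between the groups. B2m, the light chain that every class I molecule needs, had 1.497, 1.43, 1.05 and 1.35 on the ischemia arrays and 1.48, 1.54, 1.43 and 1.49 on the control arrays. Ischemia array 3 was the lowest and the groups overlapped (difference -0.16, SE 0.10, limma adjusted p = 0.617), and without that array the difference was -0.063. The heavy chain H2-D1 had 0.88, 0.86, 0.55 and 0.74 on the ischemia arrays and 0.92, 0.78, 0.82 and 0.60 on the control arrays. The heavy chain H2-K1, mean of 10 spots, had 0.45, 0.31, 0.31 and 0.45 on the ischemia arrays and 0.44, 0.33, 0.10 and 0.32 on the control arrays. The ranges of both heavy chains overlapped, with differences of -0.02 (SE 0.10) and 0.09 (SE 0.08), and the second H2-K1 probe gave 0.14. Class I heavy chains are close in sequence to each other and to other class I genes, so their probes may share signal. Of the proteins that load them, Tapbp (tapasin) differed by 0.11 (SE 0.06, limma adjusted p = 0.592) and Tap2, the partner of Tap1 in the transporter, by -0.00 (SE 0.16).

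The immunoproteasome subunits, which replace constitutive subunits and favour peptides that fit class I, were all lower in ischemia without passing. Psmb8 had -2.72, -3.41, -3.46 and -2.81 on the ischemia arrays and -2.73, -2.60, -2.71 and -3.04 on the control arrays. Ischemia arrays 2 and 3 lay below all controls and the other 2 within their range (difference -0.33, SE 0.19, limma adjusted p = 0.577). The difference was -0.21 without ischemia array 3. Psmb9 had -2.85, -2.93, -3.34 and -3.09 on the ischemia arrays and -2.71, -2.60, -2.93 and -3.70 on the control arrays. Control array 4 was the lowest of the 8, and the difference of -0.07 (SE 0.24) became -0.31 without it. Leaving out other single arrays gave Psmb9 differences up to 0.063, so its direction was not stable. Psmb10 had 4.64, 4.53, 4.28 and 4.57 on the ischemia arrays and 4.54, 4.79, 4.60 and 4.64 on the control arrays. Ischemia array 3 was again lowest and control array 2 highest (difference -0.14, SE 0.09, limma adjusted p = 0.645). The difference was -0.063 without ischemia array 3 and -0.089 without control array 2. The constitutive core of the proteasome, given for comparison, had 10 of 14 genes lower and 4 higher, a median of -0.05 and 0 genes called. Psmb5, the constitutive counterpart of Psmb8, differed by -0.15 (SE 0.06, limma adjusted p = 0.436) and Psma7 by -0.11 (SE 0.06).

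**Figure D3:**
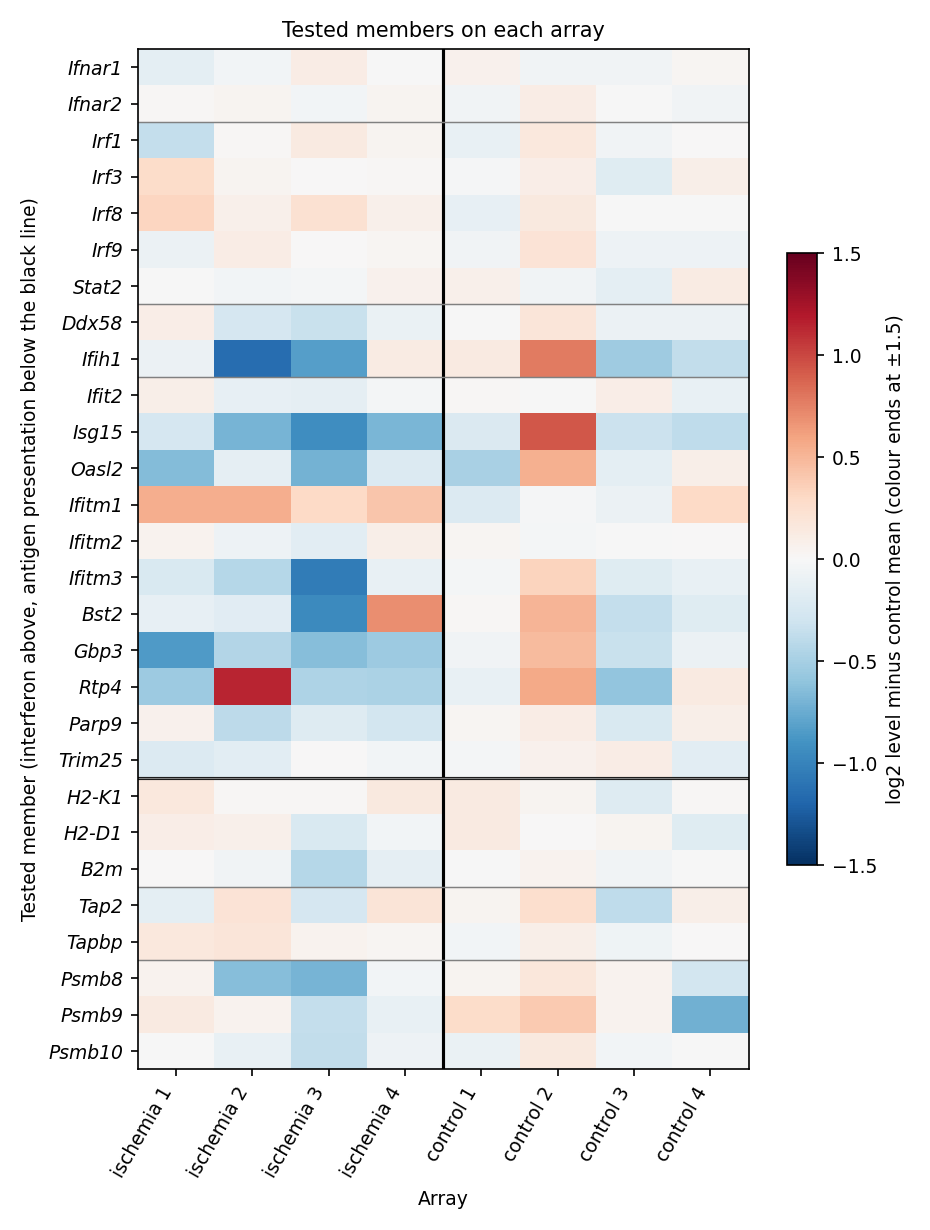
Level of each tested member on each array minus its mean over the control arrays, in log2 units (red above, blue below, colour ends at 1.5), ischemia arrays left of the line and control arrays right of it, interferon members above the thick line and antigen presentation members below. Control array 2 is red for Isg15, Ifih1, Oasl2, Bst2, Gbp3 and Rtp4, and ischemia array 3 is blue for Isg15, Ifih1, Ifitm3, Bst2 and Psmb8.

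Control array 2 and ischemia array 3 held many of the extreme values. Control array 2 had the highest level of the 8 for 10 of the 20 interferon members (50%) and 5 of the 8 antigen presentation members (62.5%), against 16.48% of all genes. It was above the mean of the other control arrays in 15 of 20 and 8 of 8 members, against 56.4% of all genes. Ischemia array 3 had the lowest level for 7 of the 20 interferon members (35%) and 4 of the 8 antigen presentation members (50%), against 17.9% of all genes. The members share these arrays, so the counts describe the arrays and carry no test. Rtp4 and Rsad2, an enzyme that forms a chain-terminating nucleotide, shared another array: Rsad2 had -4.53, -1.81, -5.81 and -5.24 on the ischemia arrays and -4.30, -4.45, -4.28 and -4.22 on the control arrays, and ischemia array 2 was the only one well above background.

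**Figure D4:**
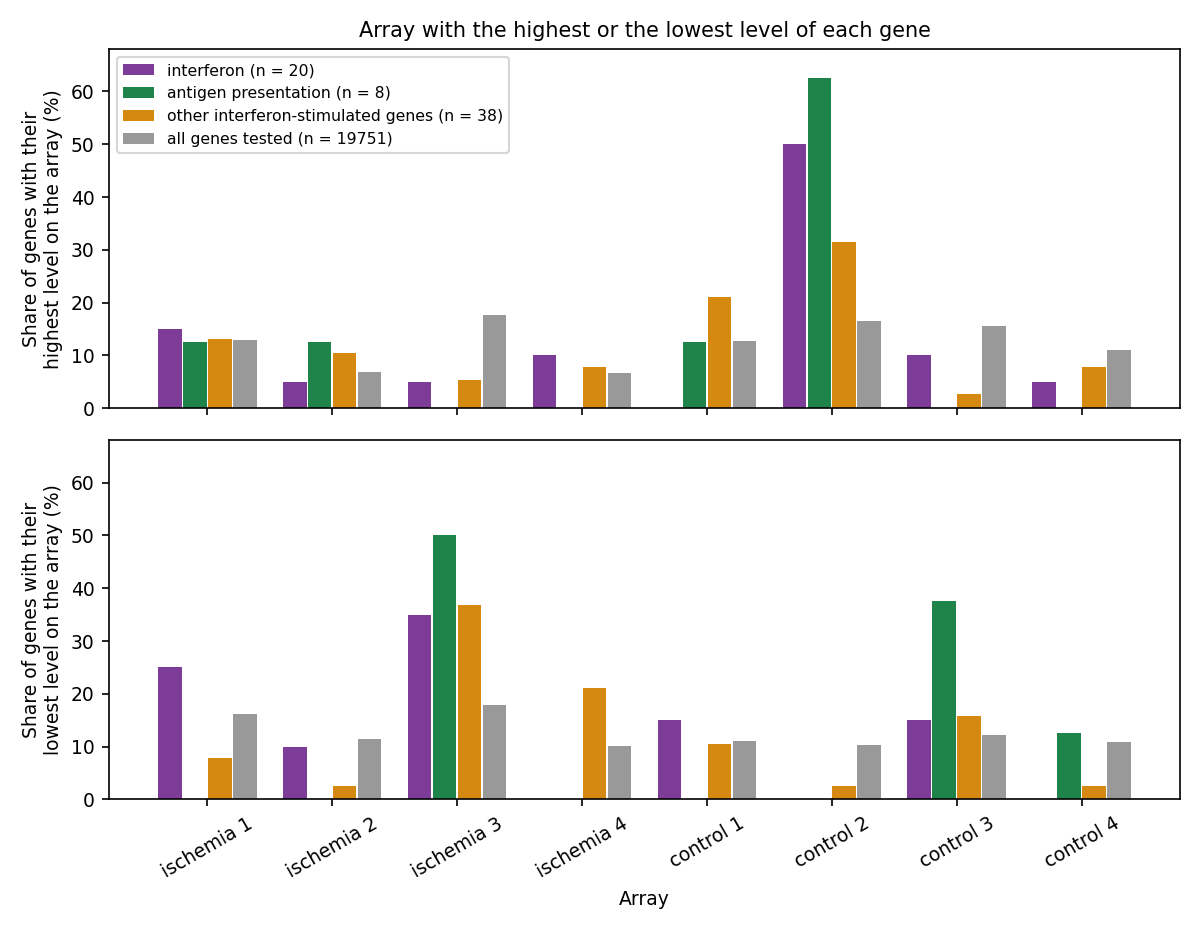
Share of genes, in percent, whose highest level (top) or lowest level (bottom) of the 8 lay on each array, for 20 interferon members, 8 antigen presentation members, 38 other interferon-stimulated genes and all 19751 genes tested. Control array 2 holds the highest level of 50%, 62.5% and 31.6% of the 3 lists, against 16.48% of all genes.

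Genes of the same pathways outside the member list were read in the same fit. Of 64 other interferon-stimulated genes 38 were tested, 26 were lower and 12 higher in ischemia, the median was -0.07 and 0 were called. Control array 2 had the highest level for 12 of these 38 (31.6%) and ischemia array 3 the lowest for 14 (36.8%). The 2 with the smallest p went in opposite directions. The ubiquitin ligase Rnf213 had -2.82, -2.81, -3.02 and -2.75 on the ischemia arrays and -2.59, -1.74, -2.29 and -2.40 on the control arrays, without overlap (difference -0.60, SE 0.17, limma adjusted p = 0.296). Ifi30, a lysosomal thiol reductase, had -0.94, -0.89, -0.78 and -1.03 on the ischemia arrays and -1.37, -1.08, -1.26 and -1.32 on the control arrays, also without overlap (difference 0.35, SE 0.08, limma adjusted p = 0.243). The chemokine genes Cxcl9, Cxcl10 and Ccl5 were not well above background on any array.

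Upstream of these genes, 20 of 30 induction and signalling genes found on the array were tested, 8 lower and 12 higher, with a median of 0.02 and 0 called. Ifnb1 and Ifna4, which encode interferons, were not well above background on any array, and Ifna1, Ifna2 and Ifng were so on 3, 2 and 1 of the 8 arrays. Tbk1, the kinase that activates Irf3, had -0.73, -0.45, -0.65 and -0.69 on the ischemia arrays and -0.77, -1.06, -1.11 and -0.97 on the control arrays. The groups stood apart by the small gap between ischemia array 1 and control array 1 (difference 0.35, SE 0.10, limma adjusted p = 0.294). Pias1, a SUMO ligase that restrains cytokine signalling, differed by 0.22 (SE 0.07, limma adjusted p = 0.358).

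Among 32 other genes listed for class I presentation and found on the array 23 were tested, 13 lower and 10 higher, with a median of -0.04 and 0 called. These counts include H2-Ke6, a gene of the MHC region outside class I presentation, at -0.04. Calr, the calreticulin that chaperones class I chains, had 3.66, 3.34, 3.46 and 3.53 on the ischemia arrays and 3.69, 3.69, 3.74 and 3.79 on the control arrays, without overlap (difference -0.23, SE 0.08, limma adjusted p = 0.351). The class I gene H2-Q8 differed by -0.28 (SE 0.12, limma adjusted p = 0.441). Nlrc5, the transactivator of class I genes, was not well above background on any array. Of 9 MHC class II genes 4 were tested and all 4 were lower, with a median of -0.28 and 0 called. H2-Ab1, a class II beta chain, had -2.16, -2.41, -2.77 and -1.95 on the ischemia arrays and -1.86, -1.06, -1.67 and -1.60 on the control arrays, without overlap (difference -0.78, SE 0.21, limma adjusted p = 0.294). Control array 2 and ischemia array 3 were again the extremes. H2-Eb1 differed by -0.37 (SE 0.11, limma adjusted p = 0.334).

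Markers of the cells that can carry these genes were read on the same arrays, and 0 of them were called. All 16 microglia markers were tested, 7 lower and 9 higher, with a median of 0.02. Their mean level relative to the control mean lay between -0.03 and 0.06 on the ischemia arrays and between -0.08 and 0.07 on the control arrays. The complement genes C1qa and C1qc, with the smallest p, differed by 0.42 (limma adjusted p = 0.248) and 0.35 (limma adjusted p = 0.339), while the purinergic receptor gene P2ry12 was at -0.30. The 14 endothelial markers had a median of 0.19, with list means from 0.10 to 0.59 on the ischemia arrays and from -0.04 to 0.05 on the control arrays, and 4 were lower and 10 higher. The smallest p were those of Slco1a4 (1.09, limma adjusted p = 0.221) and Ly6c1 (0.84, limma adjusted p = 0.235). The largest difference was that of Ly6a (1.18), and Kdr was at -0.31 with all 4 ischemia arrays below all controls (limma adjusted p = 0.243). Of 15 lymphocyte markers 5 were tested, 4 lower and 1 higher, with a median of -0.19 and Cd3e and Nkg7 both at -0.23, and the defining genes Cd3d, Cd3g, Cd8a and Ms4a1 were not well above background on any array. Of 11 monocyte and neutrophil markers found on the array 5 were tested, 1 lower and 4 higher, with S100a8 at 1.88, S100a9 at 1.47 and the granule gene Elane at -0.47. Their list mean was 0.90, 0.60, 1.29 and -0.08 on the ischemia arrays, highest on array 3, and -0.50 to 0.31 on the control arrays, while Ccr2, Ly6g and Mpo were not well above background on any array. The 3 tested border macrophage markers of 8 were higher in ischemia, Pf4 by 1.18 and Stab1 by 0.35.

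Markers of neighbouring tissue varied among the ischemia arrays. The list mean of meningeal fibroblast markers, relative to the control mean, was 1.45, -0.14, 0.41 and 0.92 on the ischemia arrays and -0.16 to 0.14 on the control arrays, with 3 of 12 tested markers lower and 9 higher. The smallest p were those of Ptgds (difference 2.35) and Igf2 (0.34). The list mean of the 5 tested choroid plexus markers was -0.00, -0.65, 0.15 and 3.67 on the ischemia arrays and -0.09 to 0.06 on the control arrays, with 2 lower and 3 higher. Ttr was at 2.74, Folr1 at 0.81 and Sostdc1 at -0.19. Ischemia array 3, the one with the lowest levels of many members, was not the extreme array of either list, but it was of others. Its list mean was the highest of the 8 arrays for cortical neuron markers (0.16) and for monocyte and neutrophil markers (1.29). For MHC class II genes it was the lowest of the 8 (-0.58). Among the ischemia arrays it was also lowest for astrocyte (-0.11) and microglia (-0.03) markers. The cortical neuron markers had 6 lower and 8 higher, with a median of 0.02. All 8 tested erythroid markers were lower in ischemia, with a median of -0.43, among them Hbb-b2 (-0.57) and Hba-a2 (-0.54). Of 9 pericyte markers 6 were lower and 3 higher, with a median of -0.06, Notch3 and Higd1b both at -0.34 and Kcnj8 at 0.42. Of 8 astrocyte markers 3 were lower and 5 higher, with a median of 0.07, Aldoc at 0.26, Slc1a3 at 0.18 and Aqp4 at -0.14. The part of these cell types in the members' differences was not tested.

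The members were then described by their promoters, a split made after the differences were seen. The window was 300 bases, 250 before and 50 after the start site, and 23 of the 30 interferon and 8 of the 9 antigen presentation members had an entry. The letters GAAANNGAAA on either strand were in 12 of the 23 (52.2%) and in 1 of the 8, B2m, against 3.99% of 27025 genes and 3.44% of all 32851 promoter windows. The letters TTCNNNGAA, a gamma interferon-activated site, were in 7 of the 23 and in 1 of the 8, Psmb8, against 9.55% of genes and 8.30% of promoter windows. In Bst2 and in Ifitm3 a match to the second motif overlaps one to the first. Tested interferon members with the first motif were Stat2, Ddx58, Ifih1, Isg15, Ifitm2, Ifitm3, Bst2 and Gbp3. Their differences were below 0 in 8 of 8 cases, from -0.64 for Isg15 to -0.00 for Stat2, with a median of -0.30. Of the 10 tested members without the letters in the window 5 were below 0, from -0.42 for Oasl2 to 0.45 for Ifitm1, with a median of -0.00. The classes also differed in role. Members without the letters included the receptor chains Ifnar1 and Ifnar2 and the factors Irf1, Irf3, Irf8 and Irf9. Of their effectors, Oasl2, Trim25 (-0.10) and Ifit2 (-0.05) were below 0 and Ifitm1 above 0. Members with the letters were effectors and sensors, apart from Stat2. The part of role in this contrast was not tested. The 393 tested genes of the whole array with these letters had a median of -0.01, and 216 of them were below 0. The median of the 8 moved to -0.15 without control array 2 and to -0.17 without ischemia array 3, where 7 and 5 of the 8 stayed below 0. A match of letters is no proof of a site, and these values are a description with no test.

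**Figure D5:**
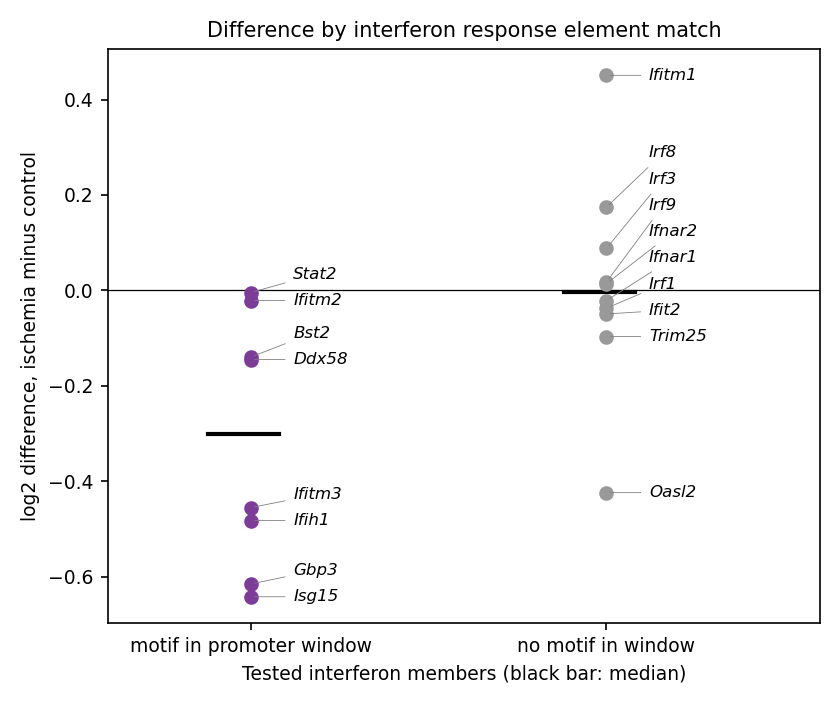
Difference of each tested interferon member with a promoter entry, in log2 units, ischemia minus control, split by a match to the interferon response element in the 300-base window, with the median of each class as a black bar. The 8 members with a match lie between -0.64 and -0.00 and the 10 without one between -0.42 and 0.45.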

How the data were processed

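The authors deposited one Agilent Feature Extraction 10.7.3.1 scanner file per array, per the file headers, with the linear intensity of each spot as background-corrected processed signal. Labelling with Cy3 started from 50 ng of RNA, per the labels. The authors' deposited value table holds a ratio: each array's processed signals over a constant of that array, with deviations of at most 0.00500%. The constant lies beside the 75th percentile over all spots, and the sources used here do not define it. The table served as an alternative. Control spots and spots with outlier flags were left out, and 26 probes with no unflagged spot left on an array were dropped. The remaining spots of a probe were averaged, and log2 of the signal minus log2 of the array's 75th percentile was taken. Of 55681 probes, 27131 were well above background on at least 4 of 8 arrays, and the one with the highest mean stood for its gene. Groups were compared with limma 3.58.1 in R 4.3.3 (lmFit, eBayes), checked on simulated data.

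Symbols were updated through RefSeq genes of GRCm38.p6, 27191 probes by accession, 3575 by current and 565 by older symbol, while 24300 kept the name in the files. Member probes were taken by the name in the files. Probe coordinates are in mm9 and were not annotated further, since no mm9 annotation was used. Members and lists were chosen with earlier results of these data known. Values on every array are given for members that pass or do not overlap between groups, the 4 with the largest range, 19 fixed members and, of each list, members that pass or the 2 with the smallest p, in part as differences only. Oasl2, Rsad2, the second probes, Cxcl9, Cxcl10, Ccl5, the interferon genes, Nlrc5 and the markers Ly6a, Kdr, Elane, P2ry12, Kcnj8, Aqp4 and Sostdc1 were added after their values were seen. The number of arrays limits the precision.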

Additional observations from a re-analysis of the deposited data

Results flagged for a closer look

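In 4 of the 56 groups of 4 arrays examined, 1 array stood apart, its gap to the nearest array taking up more of the group's range than Dixon's critical value allows. Chance gives about 1 in 20 such groups, here 2.8. The share was 0.952 for Rtp4 in ischemia (replicate 2, high) and 0.882 for Irf3 in ischemia (replicate 1, high). It was 0.889 for Irf9 in controls (replicate 2, high) and 0.879 for Isg15 in controls (replicate 2, high).

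A pair of member probes outside the test had signal on 1 ischemia array and on 0 control arrays. The Rsad2 probe had -1.81 on ischemia array 2, and the next highest of the 8 arrays was control array 4 at -4.22. A second Irf1 probe, at chr11:53591817-53591876 in mm9, had -0.94 on ischemia array 3, against -5.58 to -6.02 on the other ischemia arrays and -5.75 to -6.06 on the control arrays. Each of these probes has 1 spot per array, so the error between spots could not be read. The reverse, 1 control array and 0 ischemia arrays well above background, was seen for Mx2, Parp14 and the second probes of Isg15 and Parp9.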

How the results depend on the processing

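Of the interferon and antigen presentation members, 0 were called under any of 19 other settings or at an adjusted p under 0.1 (Ifih1 was not tested with probes above background on all 8 arrays). Over all genes limma called 1, against 0 with normexp background correction, quantile normalization, no filter on dim probes, probes above background on all 8 arrays or the replicate block, 2 with median scaling, 20 with trended and robust variance, 3 at an adjusted p under 0.1, and 0 to 1 when 1 array was left out. The lowest adjusted p of a member was 0.123 (Ifitm1). The median of the interferon members lay between -0.11 and -0.03 under all settings. That of the antigen presentation members lay between -0.08 and -0.04, and between -0.11 and 0.04 with 1 array left out, where it was above 0 without ischemia replicate 3 and without control replicate 1 or 2. Without ischemia replicate 3 it was 0.04. Whether the labelled replicate numbers pair the samples is not known (correlations of same-numbered deviations 0.08, -0.06, 0.29 and 0.39). With the number as a replicate block both medians were the same, which the balanced design fixes in advance. The block did change the SE, from 0.23 to 0.10 for Oasl2 and from 0.08 to 0.10 for Irf8.

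Differences changed sign for Ifnar1 (0.0133) and Stat2 (0.0061) with normexp, for Tap2 with median scaling (0.0015), quantile normalization (0.0077) and array weights (0.0615), and for Rtp4 with array weights (0.0917). Leaving out 1 array gave -0.0672 to 0.0212 for Ifnar1, -0.0041 to 0.0501 for Ifnar2, -0.0963 to 0.0692 for Irf1, -0.0132 to 0.0848 for Irf9, -0.0535 to 0.0366 for Stat2, -0.0566 to 0.0225 for Ifitm2, -0.42 to 0.13 for Bst2, -0.50 to 0.10 for Rtp4, -0.0804 to 0.0487 for H2-D1, -0.127 to 0.0817 for Tap2 and -0.306 to 0.0628 for Psmb9. The cause was not tested. Gbp3 stayed below 0 and Ifitm1 above 0 in all settings, at -0.73 to -0.34 and 0.29 to 0.55. The split by promoter letters, whose alternatives were added after the data were seen, gave medians from -0.49 to -0.15 with the letters and from -0.01 to 0.03 without them.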
